A study of Mus musculus with 10 samples.

Results

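The genes described are 9 ligands, receptors and receptor partners of the endothelin, adrenomedullin and Cxcl12 systems in the embryonic mouse pancreas. They are Edn1 and Ednra, then Adm, Calcrl, Ramp2 and Ramp3, then Cxcl12, Cxcr4 and Ackr3. They are 9 of the 54532 genes in the deposited count table, and all 9 were among the 18898 genes with enough reads to be tested. They were chosen by symbol because the levels of Edn1, Calcrl and Ackr3 were higher in libraries labelled as Fgf9 null. The genes were thus selected on the difference between null-labelled and control libraries, which is given below as a description of them.

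Whole pancreata of Fgf9-LacZ embryos, a line kept on C57BL/6J in which a LacZ cassette sits in the Fgf9 locus, were pooled for bulk RNA sequencing at embryonic day 13.5 (E13.5) and E14.5. Control pools mixed Fgf9 +/+ and Fgf9 +/- littermates, so the controls also hold embryos with the LacZ allele. The other pools were labelled Fgf9 -/-. At each stage there were 3 control and 2 null-labelled libraries, from 6 to 12 pancreata per control pool and 3 to 7 per null-labelled pool. The disruption was not restricted to the pancreas. Fgf9 encodes a secreted fibroblast growth factor.

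The 3 systems are signals of vessels and of the mesenchyme around organs. Endothelin-1, made by endothelium and other cells, acts on smooth muscle and mesenchyme through the endothelin A receptor. Adrenomedullin acts through the calcitonin receptor-like receptor, which reaches the surface and gains its specificity only with a receptor activity-modifying protein (RAMP), and this pair is needed for blood and lymphatic vessels to form. Cxcl12 is a chemokine of stromal cells that signals through Cxcr4, while Ackr3 binds it, removes it from the surroundings and also binds adrenomedullin.

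Library totals ran from 17736769 to 22798257 counts, and mitochondrial genes took 2.31% to 3.39% of them. Levels are in CPM, counts scaled to the library total and corrected by the trimmed mean of M-values. Fgf9 itself was at 18.4, 11.3 and 16.2 CPM in the E13.5 controls and at 5.57 and 7.66 CPM in the null-labelled pools. At E14.5 it was at 13.6, 8.76 and 6.96 CPM in controls and at 11.7 and 6.14 CPM in null-labelled pools. The groups did not overlap at E13.5 and overlapped at E14.5. edgeR's quasi-likelihood test gave a log2 fold change of -1.21 (SE 0.36, adjusted p = 0.29) at E13.5 and -0.14 (SE 0.35, adjusted p = 0.96) at E14.5. With the replicate number as a block the E13.5 difference was -1.13 (adjusted p = 0.026). That block leaves 2 residual degrees of freedom. It also takes control pool 3 of each stage, which has no null-labelled partner, out of the genotype comparison. An allele interrupted by a cassette can still be transcribed, so the count does not settle the genotype and the pools are called null-labelled throughout. Markers of pancreatic epithelium were present, with Pdx1 at a mean of 70.7 CPM and Ptf1a at 24.4 CPM. The labels do not tie pools to litters, and the spread behind each p-value is that among the pools, which may be technical. In bulk tissue, more cells of a type and more RNA per cell cannot be told apart.

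Levels can be compared between genes only per length, here as CPM per kilobase of annotated exon. In E13.5 controls Cxcl12 stood highest at 36.2 ± 0.946 CPM per kilobase (SD, n = 3) and Adm lowest at 0.493 ± 0.00591. Between them came Ramp2 at 9.68 ± 0.976, Ackr3 at 7.62 ± 1.07, Cxcr4 at 6.54 ± 1.06 and Calcrl at 5.66 ± 0.322. Ednra followed at 4.71 ± 0.495, Ramp3 at 4.66 ± 0.653 and Edn1 at 1.70 ± 0.182. The library ranges of neighbours overlapped from Ramp2 down to Calcrl, and again between Ednra and Ramp3. Cxcl12 was the highest and Adm the lowest member in all 4 groups. The ligand Edn1 was thus present at a lower level per kilobase than its receptor Ednra in every group, and Adm lay below Calcrl. Ackr3 had rank 3 of the 9 in E13.5 controls and rank 6 in E14.5 controls, where its range overlapped those of Ednra above and Calcrl below. In null-labelled pools it had rank 2 at E13.5 and rank 3 at E14.5, overlapping Ramp2 both times. Per kilobase of coding sequence the mean over all libraries moved Ednra from rank 6 to 4, Ramp3 from 7 to 6 and Cxcr4 from 4 to 7.

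**Figure D1:**
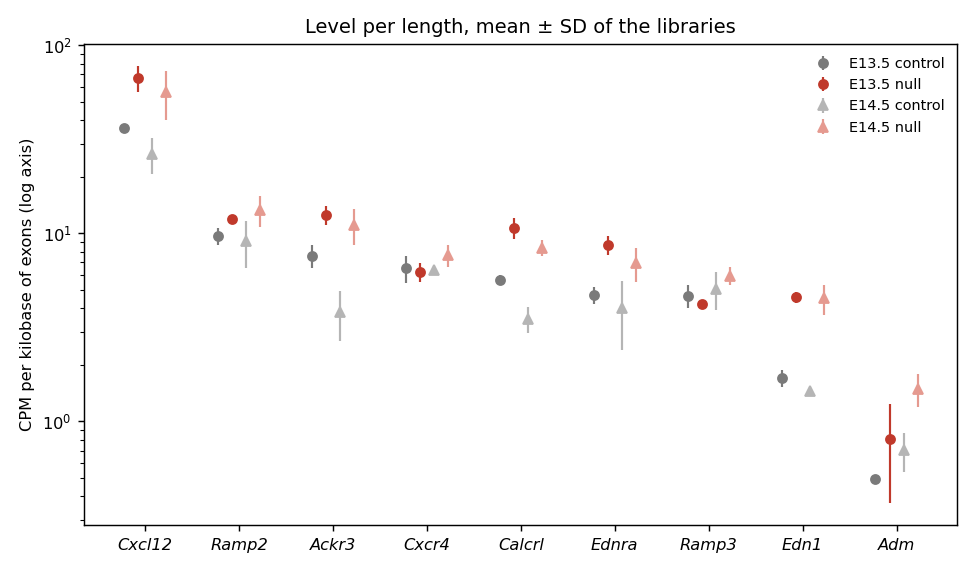
Level of each gene in CPM per kilobase of annotated exon (log axis), as the mean of each of the 4 groups with bars of 1 SD over 3 control or 2 null-labelled libraries. Cxcl12 lies above and Adm below the other genes in every group.

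In the values that follow Edn1, Calcrl, Ackr3 and Cxcl12 differ together between null-labelled and control pools while Cxcr4 differs little, so the 250 bases before the RefSeq start of each are shown from GRCm38.p6, 5′ to 3′ on the gene's own strand. RefSeq had a promoter entry for 8 of the 9 members. Ednra, which also differs between the pools, has an entry that is not printed. The windows are chr13:42301226-42301475 (plus strand) for Edn1, chr2:84425267-84425516 (minus) for Calcrl, chr1:90203730-90203979 (plus) for Ackr3, chr6:117168285-117168534 (plus) for Cxcl12 and chr1:128592300-128592549 (minus) for Cxcr4. The GENCODE gene of Calcrl begins at 84425411 on the minus strand, so part of its window lies inside that gene. Capitals mark matches to TATAAA on either strand.
Edn1: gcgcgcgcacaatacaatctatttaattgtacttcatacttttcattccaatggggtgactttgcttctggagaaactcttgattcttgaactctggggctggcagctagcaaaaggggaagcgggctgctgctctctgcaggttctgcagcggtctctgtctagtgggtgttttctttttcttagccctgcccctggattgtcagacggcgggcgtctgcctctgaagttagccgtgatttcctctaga
Calcrl: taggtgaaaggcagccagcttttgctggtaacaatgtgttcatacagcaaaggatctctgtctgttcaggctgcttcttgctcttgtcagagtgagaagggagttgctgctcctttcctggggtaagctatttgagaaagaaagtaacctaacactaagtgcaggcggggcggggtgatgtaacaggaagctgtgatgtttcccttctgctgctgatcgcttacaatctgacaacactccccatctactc
Ackr3: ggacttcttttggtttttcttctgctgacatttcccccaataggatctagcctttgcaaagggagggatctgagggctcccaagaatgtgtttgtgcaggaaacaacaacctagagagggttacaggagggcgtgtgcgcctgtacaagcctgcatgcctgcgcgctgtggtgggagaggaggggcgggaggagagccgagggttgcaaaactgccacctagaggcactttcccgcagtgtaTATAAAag
Cxcl12: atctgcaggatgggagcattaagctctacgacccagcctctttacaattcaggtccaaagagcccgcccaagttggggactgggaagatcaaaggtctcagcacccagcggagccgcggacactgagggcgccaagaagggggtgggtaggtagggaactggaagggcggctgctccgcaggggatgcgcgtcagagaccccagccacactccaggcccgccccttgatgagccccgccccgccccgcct
Cxcr4: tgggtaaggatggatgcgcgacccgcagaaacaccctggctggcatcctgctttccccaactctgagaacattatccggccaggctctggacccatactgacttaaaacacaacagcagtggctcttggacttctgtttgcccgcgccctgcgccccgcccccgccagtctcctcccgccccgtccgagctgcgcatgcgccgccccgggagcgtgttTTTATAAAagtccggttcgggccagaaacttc
TATAAA occurred in the Ackr3 window at position -8 and in the Cxcr4 window at -30, counted from the start to the motif's first base, with an overlapping match on the other strand at -32. The Edn1, Calcrl and Cxcl12 windows held none, and 12.4% of 32851 promoter windows of this length held one. The core of the hypoxia response element, ACGTG, the AP-1 motif TGANTCA and the GATA motif AGATAA were also searched on both strands and lay in none of the 8 windows. They lay in 16.6%, 6.75% and 9.99% of all windows. The Cxcl12 and Cxcr4 windows were richest in CG dinucleotides of the printed 5, with 14 and 19, against 9 in Edn1, 7 in Ackr3 and 3 in Calcrl. A motif match is a description of the letters and not a site.

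Edn1 lies at chr13:42301476-42307990 (GRCm38, plus strand) and encodes the precursor of endothelin-1. At E13.5 it was at 4.05, 3.57 and 3.28 CPM in the controls and at 10.3 and 9.34 CPM in the null-labelled pools. The corresponding E14.5 values were 3.21, 3.00 and 3.06 CPM against 10.9 and 8.39 CPM. The lowest null-labelled library was above the highest control at both stages, and the controls of the 2 stages lay close together. The differences came to 2.69-fold at E13.5 (log2 1.43, SE 0.24) and 3.11-fold at E14.5 (log2 1.64, SE 0.25). They rest on 52 to 87 counts per control library and 168 to 217 per null-labelled library.

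Ednra, at chr8:77663031-77724464 on the minus strand, encodes the endothelin A receptor of smooth muscle and mesenchyme. Control libraries held 28.9, 23.7 and 24.8 CPM and null-labelled libraries 51.6 and 43.5 CPM at E13.5. At E14.5 the controls held 31.7, 15 and 18.9 CPM and the null-labelled pools 43.6 and 32.6 CPM. The groups did not overlap at either stage, but at E14.5 control pool 1 was within 1 CPM of null-labelled pool 2. Ednra was 1.84-fold higher at E13.5 (log2 0.88, SE 0.25) and 1.74-fold higher at E14.5 (log2 0.80, SE 0.26).

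On the adrenomedullin side the receptor showed the wider difference. Calcrl, at chr2:84330626-84425411 on the minus strand, encodes the calcitonin receptor-like receptor. Its E13.5 levels were 29.2, 26.0 and 27.7 CPM in controls and 57.0 and 47.6 CPM in null-labelled pools. At E14.5 they were 19.9, 17.0 and 14.4 CPM against 43.8 and 38.2 CPM. All 4 null-labelled libraries were above all 6 controls. The differences were 1.89-fold at E13.5 (log2 0.92, SE 0.16) and 2.40-fold at E14.5 (log2 1.26, SE 0.16).

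Ramp2, at chr11:101246028-101259546, encodes the partner that turns Calcrl into an adrenomedullin receptor. It was at 28.9, 31.6 and 35.3 CPM in E13.5 controls and at 39.0 and 40.1 CPM in null-labelled pools. At E14.5 the values were 39.4, 24.0 and 26.4 CPM and 49.8 and 38.1 CPM. The groups stood apart at E13.5 and overlapped at E14.5, through control pool 1. The log2 differences were 0.31 (SE 0.20) and 0.55 (SE 0.20), smaller than those of Calcrl. Ramp2 shares exons on its own strand with Vps25, whose own row held 2 to 32 counts, so the split of reads between them is uncertain.

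Ramp3, the other RAMP that makes an adrenomedullin receptor with Calcrl, lies at chr11:6658521-6677475. It held 5.40, 7.05 and 6.86 CPM in E13.5 controls against 5.84 and 5.81 CPM, and 7.42, 5.25 and 8.35 CPM in E14.5 controls against 8.87 and 7.59 CPM. The groups overlapped at both stages, with log2 differences of -0.14 (SE 0.26; 95% interval -0.72 to 0.43) and 0.23 (SE 0.26; -0.33 to 0.80). The ratio of Ramp2 to Calcrl, per kilobase, was 1.72 ± 0.221 in E13.5 controls and 1.13 ± 0.164 in null-labelled pools. At E14.5 it was 2.58 ± 0.433 and 1.58 ± 0.144. The receptor was thus higher relative to its main partner in the null-labelled pools, with no overlap between the groups at either stage. Calcrl was chosen because it was higher in these pools, so the ratio re-uses that difference and is a description only.

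Adm, at chr7:110627661-110629820 on the plus strand, encodes adrenomedullin and was close to the limit of what these libraries can measure, at 15 to 55 counts. Control levels at E13.5 were 0.792, 0.810 and 0.795 CPM and null-labelled levels 0.803 and 1.81 CPM. At E14.5 they were 0.853, 1.38 and 1.17 CPM against 2.06 and 2.75 CPM. At E13.5 only pool 2 of the null-labelled libraries was high. The E13.5 log2 difference of 0.71 (SE 0.52) was 0.01 without it. At E14.5 the groups stood apart, with a log2 difference of 1.08 (SE 0.51).

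Cxcl12, the chemokine itself, at chr6:117168535-117181367 on the plus strand, had 298, 287 and 302 CPM in E13.5 controls and 610 and 485 CPM in null-labelled pools. At E14.5 it had 270, 189 and 189 CPM against 557 and 366 CPM. Every null-labelled library was above every control, and null-labelled pool 1 was the higher of its pair at both stages. The differences were 1.85-fold at E13.5 (log2 0.89, SE 0.20) and 2.13-fold at E14.5 (log2 1.09, SE 0.20).

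Ackr3, at chr1:90203980-90216751 on the plus strand, encodes the atypical receptor that takes up Cxcl12. It was at 29.6, 22.8 and 24.2 CPM in E13.5 controls and at 45.4 and 38.6 CPM in null-labelled pools. At E14.5 it was at 16.9, 12.1 and 9.35 CPM in controls and at 42.9 and 31.4 CPM in null-labelled pools. All 4 null-labelled libraries were again above all 6 controls. The difference was 1.64-fold at E13.5 (log2 0.72, SE 0.23) and 2.90-fold at E14.5 (log2 1.54, SE 0.23).

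Cxcr4, the signalling receptor of Cxcl12, lies at chr1:128588199-128592293 on the minus strand. Its libraries read 9.64, 13.3 and 12.5 CPM in E13.5 controls and 10.4 and 12.2 CPM in null-labelled pools, then 12.0, 11.2 and 11.6 CPM and 15.2 and 12.6 CPM at E14.5. The groups overlapped at E13.5, with a log2 difference of -0.07 (SE 0.20; 95% interval -0.50 to 0.37). At E14.5 both null-labelled pools were above the controls, by 0.26 (SE 0.20; -0.18 to 0.69). The 2 receptors of Cxcl12 thus stood in different proportions. Per kilobase, Ackr3 was 1.21 ± 0.393 times Cxcr4 in E13.5 controls and 2.03 ± 0.458 times in null-labelled pools. At E14.5 the ratio was 0.592 ± 0.164 in controls and 1.44 ± 0.128 in null-labelled pools. Neither stage showed an overlap. Per kilobase of coding sequence the E14.5 control means were 11.8 CPM for Ackr3 and 10.8 CPM for Cxcr4. The side of 1 on which the ratio falls there thus depends on the length used. Ackr3 too was chosen for its higher level in null-labelled libraries, so this ratio is also a description only.

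**Figure D2:**
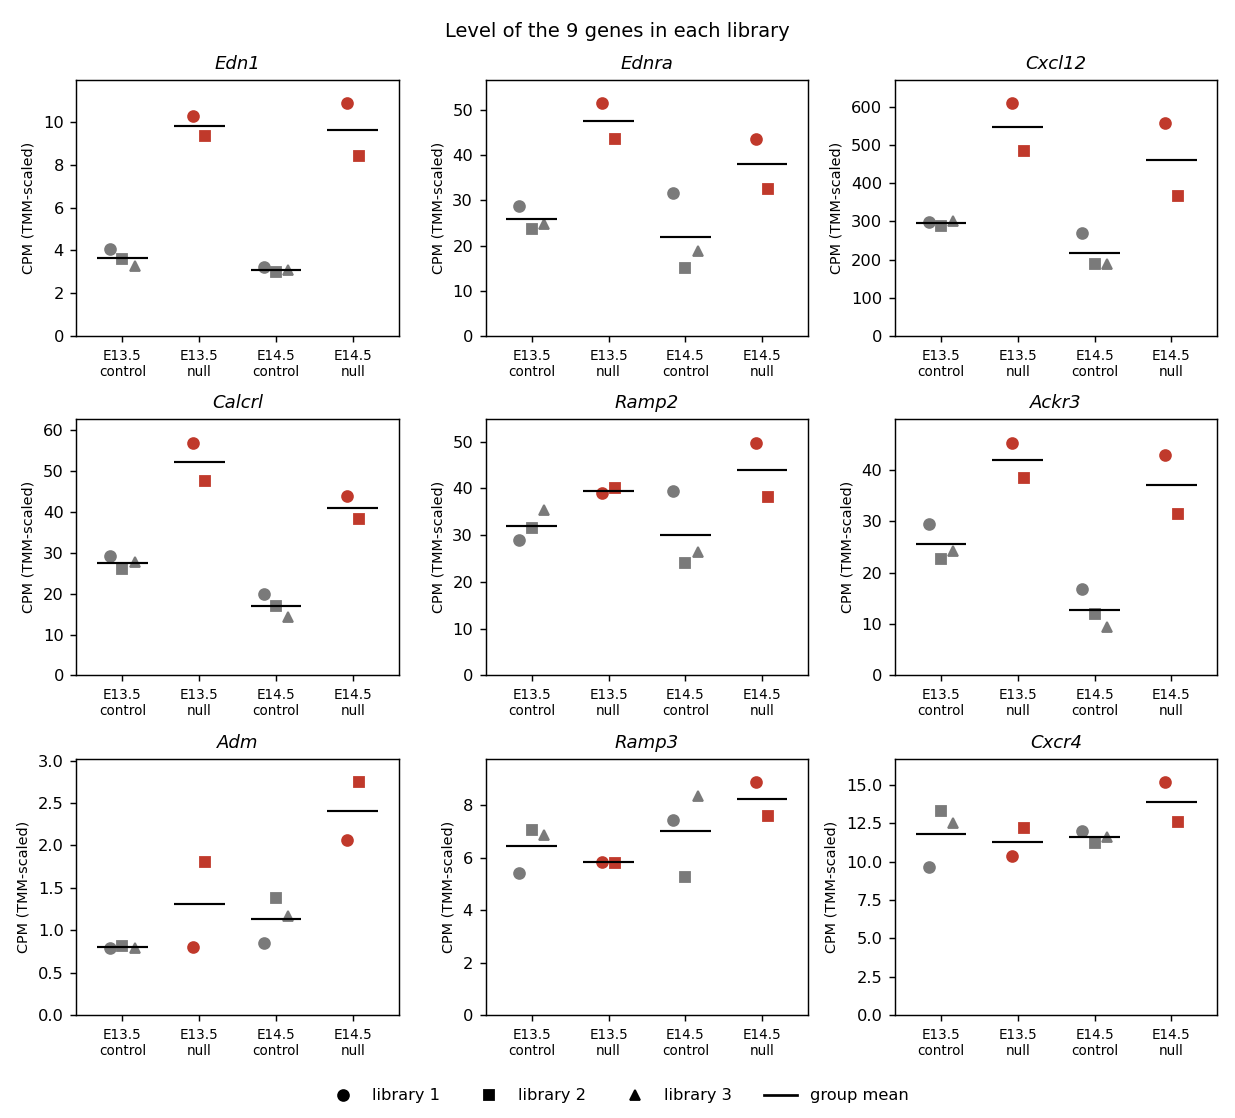
CPM of each of the 9 genes in every library, with 1 panel per gene and the 4 groups along the horizontal axis. Edn1, Calcrl, Ackr3 and Cxcl12 have every null-labelled library above every control of both stages, while Ramp3 and Cxcr4 lie within a narrow range. Ednra does so by a small margin, with its lowest null-labelled library at 32.6 CPM and its highest control at 31.7 CPM.

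Seen together, 6 of the 9 genes had null-labelled libraries above all controls at E13.5, and 7 of the 9 did at E14.5. Over all tested genes the same held for 12.7% and 11.9%. Edn1, Ednra, Calcrl, Ackr3 and Cxcl12 did so at both stages, against 4.16% of all genes. The edgeR test called Edn1 and Calcrl higher at E13.5, where 0.132% of genes were called higher, and Edn1, Calcrl and Ackr3 at E14.5, where 0.0794% were. As the mean of both stages, the 5 genes just listed were called, with a background of 1.46%. These calls depended on single libraries. At E13.5 the Edn1 call held in 3 and the Calcrl call in 4 of 10 fits that left out 1 library, and both were lost without any one E13.5 library or without E14.5 control pool 2, and Edn1 also without E14.5 control pool 3. At E14.5 the Edn1 call held in 3, the Calcrl call in 7 and the Ackr3 call in 5 of 10. All 3 were lost without E14.5 control pool 2 or 3 or null-labelled pool 1, and with only the groups compared in the fit. Edn1 and Ackr3 were also lost there without E13.5 control pool 2 or 3, and Edn1 without either E13.5 null-labelled pool. Over both stages Edn1, Calcrl, Ackr3 and Cxcl12 were called in all 10 such fits. Ednra was called in 2, without E14.5 control pool 1 or E14.5 null-labelled pool 2. Without both null-labelled pools numbered 1, Ednra and Ackr3 were not called. Blocking on the replicate number gave 5, 5 and 6 members, with backgrounds of 2.07%, 1.81% and 4.11%. Nothing is read from these shares, because the same contrast chose the genes. The median log2 difference of the 9 was 0.72 at E13.5 and 1.08 at E14.5, and that of all tested genes was -0.01 and -0.02. Between same-numbered pools, the 4 differences were all above 0 for 7 genes, and 3 of the 4 were for Ramp3 and Cxcr4. The difference was numerically larger at E14.5 for 8 members, Ednra being the exception, by 0.82 (SE 0.33) for Ackr3 and 0.34 (SE 0.23) for Calcrl. In the edgeR test of that difference between stages 0 of 18898 genes were called, 454 (2.4%) had an unadjusted p under 0.05, and DESeq2 called 3 genes and limma-voom 0.

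**Figure D3:**
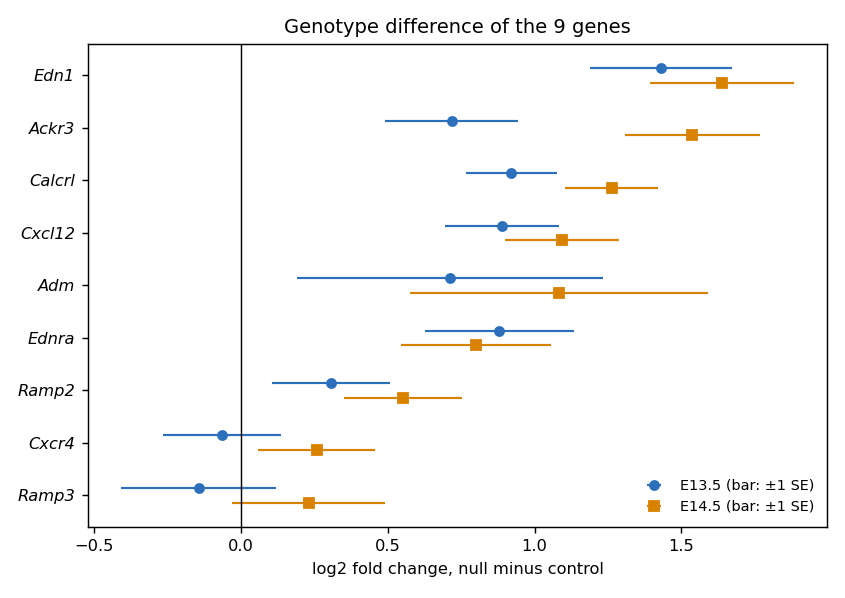
Log2 fold change of null-labelled over control pools at E13.5 and E14.5 for the 9 genes, with bars of 1 SE on each side. Edn1 reads 1.43 and 1.64 at the 2 stages, and Ramp3 and Cxcr4 lie nearest to 0.

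The patterns over the 10 libraries were also compared gene by gene, as the root mean square difference of log2 CPM after centring each gene, among the 15375 genes with a mean of at least 1 CPM. The gene most like Calcrl was Cxcl12 at 0.159, followed by Ppfibp2 at 0.173 and Ackr3 at 0.182. The genes most like Ackr3 were Calcrl at 0.182, Ltbp1 at 0.218 and A830082K12Rik at 0.222. Those most like Edn1 were Arhgap22 at 0.203, Col4a6 at 0.256 and Efemp1 at 0.275. Col4a6, a chain of basement membrane collagen, was at 31.8 CPM in E13.5 controls and 107 CPM in null-labelled pools, and at 29.0 and 96.1 CPM at E14.5. These 10 libraries share their dissections and depths, and the likeness is a description. The promoter windows printed above for Calcrl, Ackr3 and Cxcl12 had none of the 4 motifs in common.

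From E13.5 to E14.5 the control pools changed in 2 of the 9 genes. Calcrl fell 1.62-fold, from 27.6 ± 1.57 to 17.1 ± 2.73 CPM (SD, n = 3; log2 -0.69, SE 0.15, edgeR adjusted p = 0.047). Ackr3 fell 1.99-fold, from 25.5 ± 3.59 to 12.8 ± 3.83 CPM (SE 0.21 on the log2 scale, adjusted p = 0.048). For these 2 genes, and also for Cxcl12 and Edn1, all E14.5 controls were below all E13.5 controls, as for 10.6% of all tested genes. For Adm all were above, as for 9.93%. Of all tested genes 0.339% were called lower. Cxcl12 went from 296 ± 7.73 to 216 ± 46.9 CPM, a log2 change of -0.45 (SE 0.18, adjusted p = 0.23). Without E14.5 control pool 1 that change was -0.64 (adjusted p = 0.043). The changes of Edn1 (-0.23, SE 0.23), Ednra (-0.24, SE 0.23), Adm (0.50, SE 0.48), Ramp2 (-0.09, SE 0.18), Ramp3 (0.12, SE 0.23) and Cxcr4 (-0.03, SE 0.18) were not called, with adjusted p from 0.69 to 0.98. The Calcrl and Ackr3 calls are close to the threshold. They were lost when any E13.5 control was left out (adjusted p 0.12 to 0.18), without E14.5 control pool 2 or 3 (0.20 to 0.25) and without either E13.5 null-labelled pool (0.058 to 0.061). Limma-voom gave 0.073 for Calcrl and 0.070 for Ackr3. These control pools also entered the contrast that chose the genes.

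Among null-labelled pools 0 of the 9 genes were called between stages by edgeR or DESeq2, and 0 had an unadjusted p under 0.05; 0.249% of all tested genes were called. Calcrl went from 52.3 ± 6.61 to 41.0 ± 3.97 CPM (SD, n = 2), a log2 change of -0.35 (SE 0.17, edgeR adjusted p = 0.40). Ackr3 went from 42.0 ± 4.82 to 37.1 ± 8.17 CPM, a change of -0.18 (SE 0.25, adjusted p = 0.82). Edn1 was nearly level at 9.81 ± 0.669 and 9.64 ± 1.76 CPM. The stage changes in control and null-labelled pools differ by the interaction given above, which called no gene.

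Of the other endothelin genes, Ednrb carried the clearest change, and it was higher in the null-labelled pools. Ednrb encodes the endothelin B receptor of endothelium and of the neural crest cells that become enteric neurons. It held 51.6, 58.6 and 47.8 CPM in E13.5 controls and 95.5 and 83.2 CPM in null-labelled pools, then 48.7, 32.1 and 34.4 CPM and 94.1 and 65.3 CPM at E14.5. Every null-labelled library was above every control. As the mean of both stages Ednrb rose 1.88-fold (log2 0.91, SE 0.14, edgeR adjusted p = 0.0066). At single stages it was not called by edgeR, with 0.76 (SE 0.20, adjusted p = 0.18) at E13.5 and 1.05 (SE 0.20, adjusted p = 0.057) at E14.5. With the replicate block both were called, with adjusted p of 0.003 and 0.00025, on 2 residual degrees of freedom. The 7 neural crest and glial markers used here, led by Sox10, were set beside it. They summed to 85.9 to 125 CPM in E13.5 controls and 120 to 221 CPM in null-labelled pools, then 147 to 161 against 152 to 221 CPM, with overlap at both stages. Their median log2 difference was 0.83 at E13.5 and 1.12 at E14.5. All 7 differences were positive at E13.5 and 6 were at E14.5, the lowest being -0.34. As the mean of both stages edgeR called 1 of the 7 higher, or 5 with the block, beside 1.46% and 4.11% of all genes. Their part in the Ednrb result was not tested. The Ednrb call at both stages together stood in all 10 fits that left out 1 library, and not without both null-labelled pools numbered 1 (0.71, adjusted p = 0.084).

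Both endothelin receptors were thus higher in null-labelled pools, and their proportion differed little. Per kilobase, Ednra was 0.385 ± 0.0626 of Ednrb in E13.5 controls and 0.414 ± 0.00924 in null-labelled pools, then 0.433 ± 0.0705 and 0.375 ± 0.0197 at E14.5, with overlap at both stages. The ligands Edn1 and Edn3 did not move together. Edn3, the ligand that acts through Ednrb on neural crest, was not called (both stages -0.17, SE 0.12, edgeR adjusted p = 0.67). At E13.5 it was at 19.7, 19.4 and 17.2 CPM in controls and lower, at 13.9 and 14.1 CPM, in null-labelled pools. Such a separation downward held for 10.9% of all tested genes. At E14.5 the groups overlapped, at 13.1, 12.3 and 12.2 CPM against 11.9 and 14.9 CPM. Per kilobase, Edn3 was 2.70 ± 0.157 times Edn1 in E13.5 controls and 0.743 ± 0.0581 times in null-labelled pools. At E14.5 the ratio was 2.11 ± 0.0340 and 0.745 ± 0.251. On this exon length the ratio ran above 2 in all 6 controls and below 1 in all 4 null-labelled pools. Per kilobase of coding sequence, mean Edn3 stayed above mean Edn1 in null-labelled pools. Edn3 had 21.8 CPM there and Edn1 16.2 CPM at E13.5, and the E14.5 means were 20.8 and 15.9 CPM. Whether the ratio falls below 1 in these pools thus depends on the length used. The ratio re-uses the difference in Edn1 that chose the genes, and is a description only. Ece1, the protease that cuts the endothelin precursor to its active form, was not called in that fit (0.35, SE 0.09, adjusted p = 0.083) and was with the block (0.41, adjusted p = 0.0021). At E13.5 or E14.5 alone, 0 of the genes in the 4 lists outside the 9 were called by edgeR, and 3 and 2 were with the block. Over all tested genes edgeR called 0.307% and 0.111% in either direction, and 3% and 2.46% with the block. In all, 1 of the 7 tested endothelin genes outside the 9 was called higher and 0 lower, as the mean of both stages, beside 1.46% and 0.418% of all genes.

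For the other genes of adrenomedullin and calcitonin gene-related peptide signalling, 0 of the 7 tested (of 8 listed) were called in either direction as the mean of both stages by edgeR, and 2 were with the replicate block. The shares of all tested genes were 1.87% and 5.83%. Pam, the enzyme that amidates adrenomedullin and many other peptides, had a log2 difference of 0.33 (SE 0.11) with adjusted p = 0.20, and of 0.38 with the block (adjusted p = 0.0033). Crcp, a component of the calcitonin gene-related peptide receptor, had -0.03 (SE 0.12, adjusted p = 0.96). Gpr182, a receptor of lymphatic and sinusoidal endothelium, was named after its values were seen. It had 0.97 (SE 0.23, adjusted p = 0.055; with the block 0.89, adjusted p = 0.031), and its groups did not overlap at either stage.

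Among other partners of Cxcl12 and its receptors, 0 of the 7 tested (of 8 listed) were called by edgeR, as the mean of both stages, and 2 with the block. Over all tested genes 1.87% and 5.83% were called in either direction. Mif, a cytokine that also binds Cxcr4, had -0.17 (SE 0.10, adjusted p = 0.56), and Grk2, a kinase that switches off such receptors, had 0.01 (SE 0.10, adjusted p = 0.99). Arrb1, the arrestin that binds activated receptors, was also named after its values were seen, with 0.46 (SE 0.11, adjusted p = 0.055; with the block 0.41, adjusted p = 0.0088). The other gene called with the block was Cxcl14, likewise named afterwards (1.01, SE 0.72, adjusted p = 0.67; with the block 1.22, adjusted p = 0.048), at 8 to 169 counts with overlapping groups.

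In the list of 19 further vasoactive genes 1 was called higher and 0 lower, as the mean of both stages, beside 1.46% and 0.418% of all genes. Nos3, the nitric oxide synthase of endothelium, was at 10.8, 10.2 and 7.70 CPM in E13.5 controls and at 14.2 and 15.7 CPM in null-labelled pools. At E14.5 it was at 8.58, 7.67 and 8.46 CPM against 13.6 and 12.4 CPM. The groups did not overlap, and Nos3 rose 1.57-fold (log2 0.65, SE 0.14, edgeR adjusted p = 0.039). That call was lost in the fits leaving out any library other than E14.5 control pool 1 or E14.5 null-labelled pool 2, with adjusted p from 0.053 to 0.15. Npr3, the clearance receptor of natriuretic peptides, had -0.23 (SE 0.16, adjusted p = 0.66), and fell with the block by 0.33 (adjusted p = 0.015), where 1.72% of all genes were called lower. Aplnr, the apelin receptor of endothelium, had -0.01 (SE 0.09, adjusted p = 0.97). Its ligand gene Apela, named after its values were seen, had 2.24 (SE 0.54, adjusted p = 0.061; with the block 2.73, adjusted p = 0.00078), at 2 to 41 counts in controls and 52 to 113 in null-labelled pools. The median log2 difference was 0.55 for the 7 other endothelin genes, 0.33 for the adrenomedullin list, 0.01 for the Cxcl12 list and 0.18 for the vasoactive list, beside -0.02 for all tested genes.

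Between stages in controls, 1 gene of these lists was called, and 0.778% of all genes were called higher. Agtr2, the angiotensin II receptor abundant in fetal mesenchyme, was at 20.1, 25.3 and 21.2 CPM at E13.5 and at 59.9, 82.8 and 81.4 CPM at E14.5. It rose 3.37-fold (log2 1.75, SE 0.25, edgeR adjusted p = 0.015), and the call was lost without any one E13.5 control (0.067 to 0.11) or without E14.5 control pool 2 or 3 (0.089 and 0.078). In null-labelled pools it was at 23.2 and 54.7 CPM at E13.5 and at 57.3 and 51.5 CPM at E14.5, so 1 E13.5 pool already reached the E14.5 level. The change there was 0.48 (SE 0.30, adjusted p = 0.53), and the difference between the stage changes was -1.27 (SE 0.39, adjusted p = 1).

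**Figure D4:**
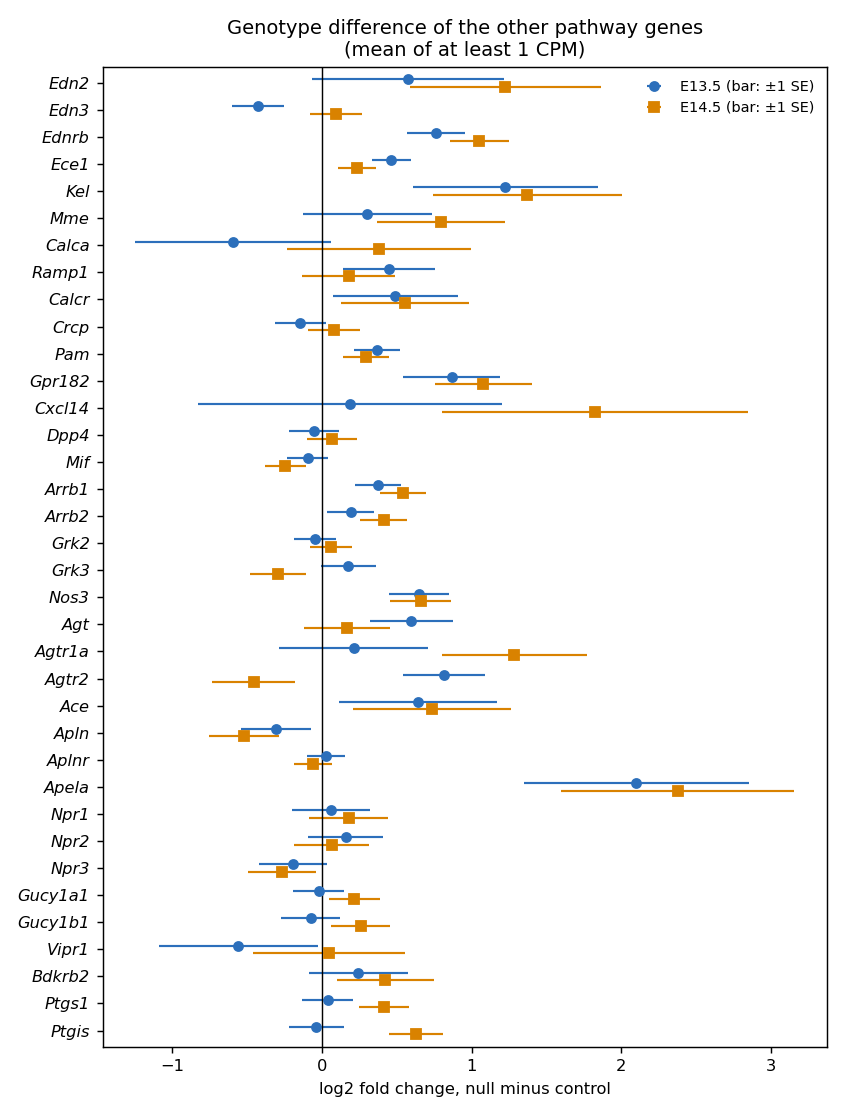
Log2 fold change of null-labelled over control pools at E13.5 and E14.5 for the tested genes of the 4 other lists with a mean of at least 1 CPM, with bars of 1 SE on each side. Ednrb reads 0.76 and 1.05 and Nos3 0.65 and 0.66, while Mif and Npr3 lie below 0 at both stages.

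Marker sums of several cell types also differed between null-labelled and control pools. The summed level of 14 endothelial markers, led by Pecam1 and Cdh5, was 672 to 732 CPM in E13.5 controls and 863 to 900 CPM in null-labelled pools, and 698 to 754 against 784 to 840 CPM at E14.5. The sum of 12 smooth muscle and pericyte markers, led by Acta2 and Myh11, was 623 to 771 against 734 to 807 CPM at E13.5 and 506 to 689 against 677 to 1001 CPM at E14.5. That of 8 fibroblast markers, led by Pdgfra and Col1a1, was 3936 to 4597 against 5538 to 6991 CPM, then 4112 to 6421 against 7016 to 10618 CPM. Single markers of these 2 lists went both ways. At E13.5, 6 of the 12 smooth muscle markers were higher without overlap and 3 lower, and 5 and 1 of the 8 fibroblast markers. Over all tested genes these shares were 12.7% and 10.9%. At E14.5 the counts were 5 and 0, then 5 and 1, beside 11.9% and 11.8%. Among markers of tissue outside the pancreas, the 8 liver markers stood at 330 to 452 against 535 to 592 CPM, then 390 to 450 against 584 to 616 CPM. The 8 skeletal muscle markers reached 223 CPM in E14.5 null-labelled pool 1, and were between 19.7 and 69.6 CPM in the other 9 libraries. Sums of 8 pancreatic epithelial markers overlapped between the groups, and E14.5 null-labelled pool 1 had 2663 CPM, below the 3554 to 6514 CPM of the E14.5 controls. The 4 lymphatic markers, led by Lyve1 and Flt4, overlapped, at 87.7 to 121 against 106 to 132 CPM and then 74.3 to 144 against 122 to 157 CPM. Neural crest and glial markers, led by Sox10, are given beside Ednrb above. Macrophage markers (8 genes) summed to 225 to 289 against 246 to 307 CPM, then 194 to 262 against 265 to 358 CPM. Sums of the 7 mesothelial markers overlapped, at 257 to 382 against 266 to 301 CPM and then 263 to 416 against 357 to 448 CPM. Those of the 8 erythroid markers overlapped too, at 445 to 757 against 638 to 892 CPM and then 476 to 1094 against 486 to 1010 CPM, though their median log2 difference was 0.81 and 0.85. Most markers of spleen mesenchyme, a list of 6 led by Tlx1 and Barx1, were far lower in null-labelled pools, with a median log2 difference of -3.05 at E13.5 and -2.08 at E14.5. As the mean of both stages edgeR called 4 of the 6 lower and 0 higher, beside 0.418% and 1.46% of all genes. The other 2 had positive differences. With the block 4 were called lower and 1 higher, beside 1.72% and 4.11%. The sum of the 6 hides the lower levels, at 397 to 493 against 347 to 376 CPM and then 270 to 373 against 245 to 305 CPM. No marker of these lists was at 0 over the libraries. The part of these cell types in the results was not tested.

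Levels relative to the markers were therefore computed, as log2 CPM minus the mean log2 CPM of a list. Relative to the 14 endothelial markers, the null-labelled pools were higher by 1.07 at E13.5 and 1.36 at E14.5 for Edn1, and by 0.58 and 1.03 for Calcrl. Ackr3 was higher by 0.38 and 1.32, and Cxcl12 by 0.54 and 0.84. These 4 genes showed no overlap at either stage. Ednra was higher by 0.54 and 0.61, with overlap at E14.5. Ramp2 (-0.03 and 0.33) and Cxcr4 (-0.39 and 0.01) overlapped at both stages, and Ramp3 was lower at E13.5 (-0.47) and level at E14.5 (0.01). Adm (0.21 and 0.79) stood apart at E14.5. Relative to the 12 smooth muscle and pericyte markers, Edn1 (0.81 and 0.55) and Ackr3 (0.12 and 0.51) had no overlap at either stage. For Ackr3 at E13.5 the margin was slight, with the lowest null-labelled pool at 0.283 and the highest control at 0.281. Calcrl (0.32 and 0.22), Cxcl12 (0.28 and 0.03) and Ednra (0.28 and -0.19) overlapped at E14.5 on that scale. Ramp3 was lower at both stages (-0.73 and -0.80), and Ramp2 (-0.29 and -0.48) and Cxcr4 (-0.66 and -0.80) were lower without overlap at E14.5. Adm overlapped at both (-0.05 and -0.02). Relative to the 8 fibroblast markers, Edn1 (0.97 and 1.07), Calcrl (0.48 and 0.74), Ackr3 (0.28 and 1.03) and Cxcl12 (0.44 and 0.55) stood apart at both stages. Ednra (0.44 and 0.33) was higher without overlap at E13.5. Ramp3 (-0.57 and -0.28) was lower without overlap at E13.5 and Cxcr4 (-0.50 and -0.28) at E14.5. For Edn1 and Ackr3 the groups stood apart against all 3 lists at both stages, by that slight margin in 1 case. Both genes were chosen because they were higher in null-labelled libraries, and these scales re-use that difference. The share of all tested genes standing apart on these scales was not computed, so nothing is read from the separation.

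**Figure D5:**
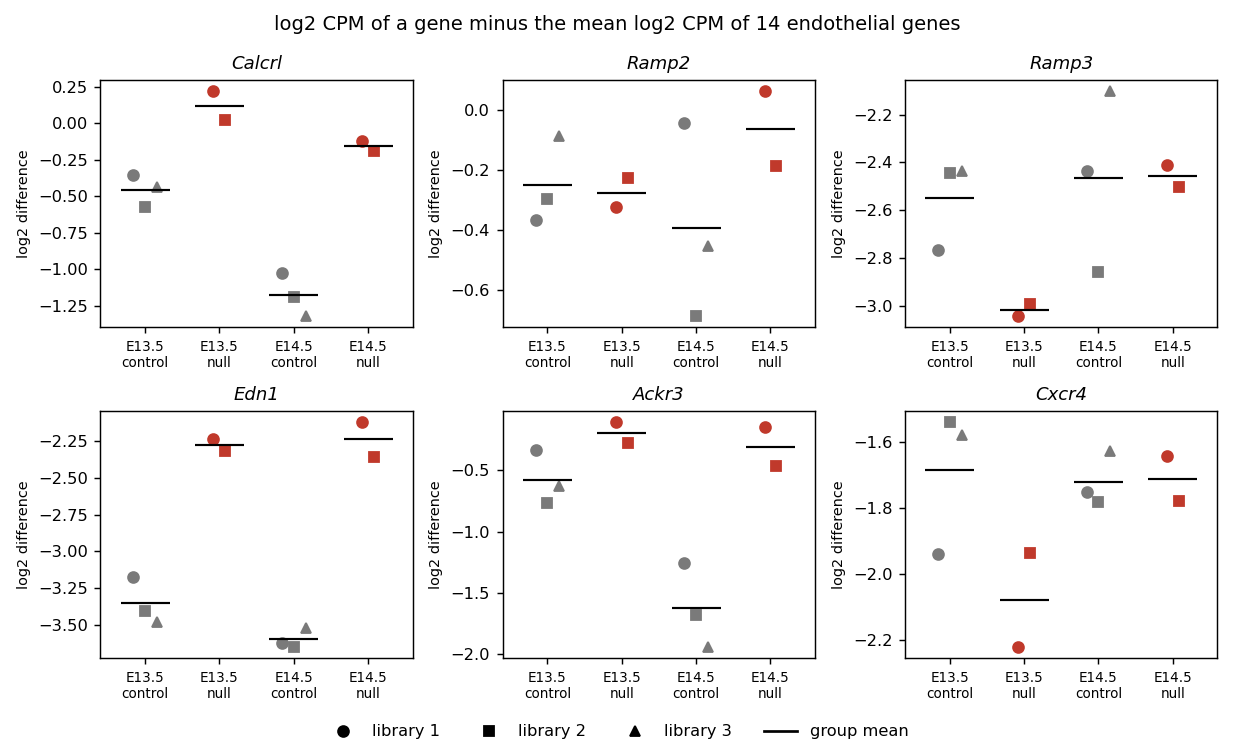
Log2 CPM of 6 of the genes minus the mean log2 CPM of 14 endothelial markers, with 1 point per library and a line at each group mean. Edn1, Calcrl and Ackr3 have both null-labelled libraries above the controls of their stage, and Ramp2 and Cxcr4 overlap.

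Adm and Edn1 are also known to respond to low oxygen. The 12 hypoxia response genes, led by Vegfa and Slc2a1, had a median log2 difference between genotypes of 0.06 at E13.5 and 0.04 at E14.5. Of the 12, 0 were called by edgeR at either stage, beside 0.307% and 0.111% of all genes. With the block 1 was called at each stage, higher at E13.5 and lower at E14.5, beside 2.07% and 0.646%. From E13.5 to E14.5 all 12 had positive changes in controls and in null-labelled pools. Their medians were 0.62 and 0.64, and those of all tested genes 0.007 and 0.002. In controls 2 were called higher, beside 0.778% of all genes, and in null-labelled pools 0 were, where 0.249% were called. The part of low oxygen in the results was not tested.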

How the data were processed

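Poly(A) RNA from 10 pools of whole embryonic pancreas was sequenced after NEBNext Ultra II library preparation, per the labels' protocols. The authors deposited raw read counts per gene, and per the submitters' processing notes TopHat, HTSeq, DESeq2 and the mm10 build were used. Their versions and the strand setting were not given in the sources used here. Reads of Edn1, Ednra and Ramp3 may therefore include some of opposite-strand genes that overlap their exons (rows of 0 to 25 counts).

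The deposited counts were tested with edgeR 4.0.16 (R 4.3.3, trimmed mean of M-values, quasi-likelihood test, Benjamini-Hochberg threshold 0.05) over 18898 genes kept by its expression filter, which held 99.9% of counts. One fit held all 4 groups, with 6 residual degrees of freedom. DESeq2 1.42.0, limma-voom (limma 3.58.1), DESeq2-style size factors in edgeR, a replicate block, no filter, a fit restricted to the groups compared, and leaving out libraries were the alternatives. Standard errors are the log2 fold change divided by the square root of F. The procedure was tested on simulated counts. The 9 genes and all gene lists were chosen with earlier results of these data known. Besides the 9 genes, the text names listed genes called in any comparison and the 2 uncalled genes of each list with the highest mean CPM, plus a few said to be named afterwards.

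Same-numbered control and null-labelled pools correlated in their deviations from the group means at 0.36 and 0.14 at E13.5 and 0.35 and 0.16 at E14.5, all above 0.1, so the numbers, which come from the sample titles, were taken to pair them. The evidence is thin: with 2 pools the null-labelled deviations mirror each other, and null-labelled pool 2 correlated more with control 3 (0.25 and 0.22) than with control 2. Exon lengths and coordinates are from GENCODE M21 on GRCm38, and promoter sequences from RefSeq (GRCm38.p6). No replicate pair agreed within sampling noise. 1 marker is not reported here and was left out of the neural crest and glial list.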

Additional observations from a re-analysis of the deposited data

How the results depend on the processing

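No called result changed sign under any alternative run. The numbers of genes called depended strongly on the settings. At E13.5 between genotypes 58 genes were called by edgeR, 240 by DESeq2, 459 without the low-count filter, 197 with only the groups compared and 26 without both null-labelled pools numbered 1. Members called went from 2 to 3, 5, 4 and 0 in those settings, and other pathway genes from 0 to 1, 3, 1 and 1. At E14.5 the 21 calls became 290, 547, 2 and 13, the 3 members 4, 5, 0 and 0, and the 0 other pathway genes 1, 3, 0 and 0. As the mean of both stages, 354 genes were called, 708 by DESeq2, 963 without the filter and 101 without both of those pools. The 5 members became 5, 6 and 3, and the 2 other pathway genes 6, 7 and 0, with 5 under limma-voom. The difference between stages gave 0 genes, 3 with DESeq2 and 51 without the filter, 1 of them a pathway gene. In controls between stages 211 genes were called, 992 by DESeq2, 57 by limma-voom, 1292 without the filter, 330 with only the groups compared and 397 without those pools. Members there were 2, with 0 under limma-voom, 3 without the filter and 1 with only the groups compared, and pathway genes 1, with 6, 7, 2 and 2 under DESeq2, no filter, only the groups compared and without those pools. In null-labelled pools 47 genes were called, 544 by DESeq2, 29 by limma-voom, 888 without the filter, 19 with only the groups compared and 21 without those pools, with 0 members and 1 pathway gene under DESeq2 and no filter. Without the filter edgeR set the prior degrees of freedom to infinity, which makes every gene share one dispersion trend.

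With the replicate block, 566, 464 and 1102 genes were called between genotypes at E13.5, E14.5 and both stages, 13 for the difference between stages, 1607 in controls and 987 in null-labelled pools between stages. Members called with the block were 5, 5, 6, 0, 3 and 0, and other pathway genes 3, 2, 9, 0, 7 and 0. For the stage comparisons same-numbered pools correlated at 0.30, 0.04 and 0.16 in controls and 0.12 in null-labelled pools, so those samples share only a number. Between genotypes the block removed no call that the report names.

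Leaving out 1 library at a time gave 7 to 128 calls at E13.5 (members 0 to 4, other pathway genes 0), 2 to 259 at E14.5 (0 to 6 and 0 to 2) and 140 to 679 over both stages (4 to 6 and 1 to 6). Between stages it gave 0 to 1210 in controls (0 to 3 and 0 to 5) and 0 to 266 in null-labelled pools (0 and 0). The highest count came without E14.5 control pool 1 in each of these comparisons. A lone null-labelled library is then assumed to vary like the other groups. Depth limits Adm, at 15 to 55 counts per library, and the design limits every count, with 2 null-labelled pools per stage.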
